A study of Mus musculus with 2 samples.

Results

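Transcription factors that set how far a CD8+ T cell has moved from a resting toward an effector state were followed through repeated stimulation in culture. The list of 8 genes was Lef1, Myb, Bach2, Foxo1, Satb1, Bcl6, Prdm1 and Zeb2. Members were the probes whose platform annotation gave exactly 1 gene symbol equal to a listed gene and that had a value on both arrays. Of the 8 genes, 7 had such a probe, and each of the 7 had 1 probe, among 14150 genes measured in all. No probe was annotated to Bach2 alone, so Bach2 is not analysed here.

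The cells were CD8+ effector T cells of the pmel transgenic mouse, whose T cell receptor recognises a peptide of the melanocyte protein gp100, restimulated in vitro. RNA of cells after 2 rounds of stimulation (channel 2) and RNA of cells after 1 round (channel 1) was hybridised together on a 2-colour microarray. The series has 2 such arrays, the second a repeat of the first, so n is 2 throughout. The mouse line carries 1 transgenic receptor, and whether every cell of the culture bore it is not stated. Neither the age of the mice nor whether the repeat used a new culture is stated. Errors and limma p-values therefore measure only the spread between these arrays, which may be technical.

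The deposited values compare the channels of an array as log ratios, read here as log2. Which stage is the numerator is not stated. The titles and channel numbers put the first stimulation first, and a ratio of 1 round over 2 rounds is 1 possible reading. That order does not fix the numerator, so the direction remains unknown. Read that way, RNA with a positive value was less abundant after 2 rounds than after 1, and RNA with a negative value was more abundant. The opposite order would turn every sign round. The channel layout was the same on both arrays and no dye swap is stated, so a dye effect on a probe and a difference in RNA cannot be told apart. Were the values natural logs, each fold given here would be too small. No spot intensity was used, so no level of any gene and no ranking of genes by level can be given, and the label of the cells could not be checked against levels of their markers.

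As background, naive and memory T cells keep a set of factors that hold them quiescent, long-lived and able to home to lymph nodes. LEF1 works beside TCF-1 at genes of naive T cells, MYB favours self-renewing memory cells, FOXO1 drives homing and survival genes, SATB1 organises chromatin, and BACH2 holds back AP-1 driven effector genes. BCL6 and BLIMP-1, the product of Prdm1, repress each other's genes, and BLIMP-1 and ZEB2 are known for terminal effector cells. Prdm1 and Zeb2 are thus on the effector side of this list by their known roles, whatever its name.

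All 7 measured factors kept their sign on both arrays. The 5 factors known from less-differentiated cells, Myb, Lef1, Foxo1, Satb1 and Bcl6, were positive on both, and the 2 effector factors, Prdm1 and Zeb2, were negative on both. Among all genes, 29.6% were positive and 33.6% were negative on both arrays. The lowest of the 5 was Bcl6 on either array. It stood above Zeb2 by 0.28 on array 1 and by 0.42 on array 2. That the 2 sets did not overlap follows from their signs alone and is no further result. limma's confidence intervals of Bcl6, -0.25 to 0.51, and of Zeb2, -0.59 to 0.15, both held values of either sign. Neither gap exceeded 0.422, the SD over all probes of the difference between arrays. Myb and Prdm1 were the extremes. Myb lay above Prdm1 by 2.72 on array 1 and by 2.03 on array 2.

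**Figure D1:**
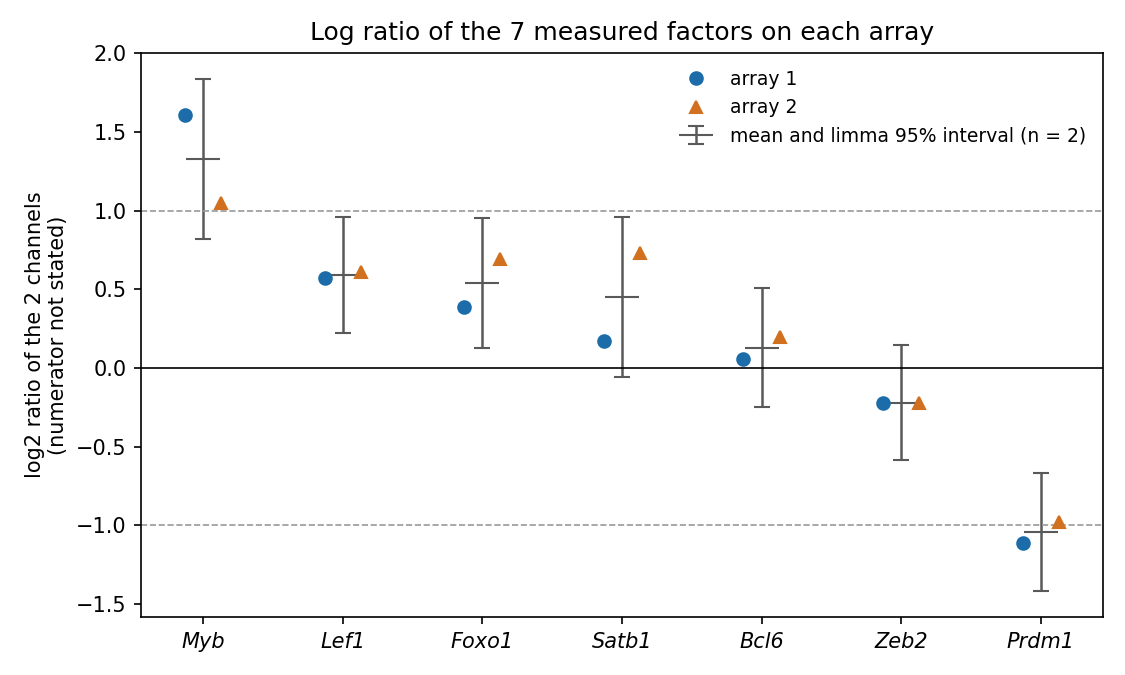
Log2 ratio of the 2 channels (vertical axis) for the 7 measured factors, in order of their mean. Circles are array 1, triangles are array 2, and bars are the mean with limma's 95% confidence interval (n = 2). Dashed lines mark a 2-fold ratio. The 5 factors at the left are above 0 on both arrays, from 0.06 for Bcl6 to 1.61 for Myb, and Zeb2 and Prdm1 at the right are below 0 on both.

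In limma's moderated test none of the 7 members passed. The count over all 21427 probes was 0 (0%) at an adjusted p of 0.05, and over all 14150 genes it was also 0 (0%). The smallest adjusted p of any probe was 0.162, a value that Prdm1 shared with other probes, 172 in all. At an unadjusted p under 0.05 there were 3 positive members, Myb, Lef1 and Foxo1, against 5.86% of all genes, and 1 negative member, Prdm1, against 10.3% of all genes. No member is therefore described as changed, and the values below are given by their size and by how closely the arrays matched.

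Under a rule of size, both arrays had to show a ratio of at least 2-fold in the same direction. It was met by 1 positive member, Myb, against 0.233% of all genes. After quantile normalization of the 2 arrays 0 positive members met it. No negative member met it (0 members), against 0.721% of all genes. Prdm1 was the member just outside it, with a 1.97-fold ratio on array 2, and Myb was just inside it, with 2.07-fold on that array. At 1.5-fold, Prdm1 joined Myb, against 1.24% of all genes on the positive and 3.0% on the negative side. Here Lef1 was just outside, at 1.49-fold on array 1.

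Myb encodes c-MYB, a factor of blood progenitors that in mouse CD8+ T cells is known to activate Tcf7 and to repress Zeb2. Its log2 ratio was 1.61 on array 1 and 1.05 on array 2. The mean was 1.33 ± 0.40 (SD, n = 2), a 2.51-fold difference, with a 95% confidence interval of 0.82 to 1.84 and limma's adjusted p of 0.165. Only 36 of the 14150 genes lay higher, or 0.254%. The interval lay above 0, although the arrays differed by 0.56, more than the 0.235 that was the median difference between arrays over all genes.

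Lef1 encodes an HMG-box factor that binds DNA beside TCF-1 and can work with beta-catenin. It read 0.57 on array 1 and 0.61 on array 2, and its 2 values, 0.04 apart, were closer than those of any member but Zeb2. The mean was 0.59 ± 0.03 (SD, n = 2), or 1.51-fold, with an interval of 0.22 to 0.96 and limma's adjusted p of 0.216. There were 428 genes higher than Lef1, or 3.02%.

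Foxo1 encodes a forkhead factor that AKT phosphorylates and sends out of the nucleus when T cells are stimulated, so its RNA says nothing of the protein's location. Its log2 ratios were 0.39 on array 1 and 0.69 on array 2. The mean of 0.54 ± 0.21 (SD, n = 2), or 1.45-fold, had an interval of 0.13 to 0.95, and limma's adjusted p was 0.264. Genes lying higher made up 3.67% of all genes.

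Satb1 encodes a chromatin organiser of thymocytes and T cells. It read 0.17 on array 1 and 0.73 on array 2, so its place among all genes depended on the array, with 25.6% of genes higher on array 1 and 3.32% on array 2. The mean was 0.45 ± 0.40 (SD, n = 2) with an interval of -0.06 to 0.96, which includes 0. limma's adjusted p was 0.376.

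Bcl6 encodes a zinc finger repressor best known from germinal centre B cells and follicular helper T cells, which also favours memory CD8+ T cells. Its log2 ratios, 0.06 on array 1 and 0.20 on array 2, were the smallest of the positive members. The mean was 0.13 ± 0.10 (SD, n = 2) with an interval of -0.25 to 0.51, which includes 0, and 27.7% of genes lay higher. limma's adjusted p was 0.690.

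Prdm1, the gene of BLIMP-1, a zinc finger repressor of terminal effector T cells and plasma cells, was the member farthest on the negative side. It read -1.11 on array 1 and -0.98 on array 2, a difference of 0.13. The mean of -1.04 ± 0.09 (SD, n = 2), or 2.06-fold, had an interval of -1.42 to -0.67, and limma's adjusted p was 0.162. There were 184 genes lower than Prdm1, or 1.3%. Prdm1 and its antagonist Bcl6 differed by 1.17 on array 1 and 1.18 on array 2.

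Zeb2 encodes a zinc finger repressor that acts with T-bet in terminal effector cells. It read -0.22 on both arrays, which made it the member with identical values, as were 153 of the 14150 genes. Its interval was -0.59 to 0.15, limma's adjusted p was 0.498, and 23.9% of genes lay lower. Although Prdm1 and Zeb2 share the negative side, Prdm1 was farther out by 0.89 on array 1 and 0.76 on array 2.

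From high to low, the means ran Myb, Lef1, Foxo1, Satb1, Bcl6, Zeb2 and Prdm1. Of the 21 pairs of members, 18 kept their order on both arrays. The other 3 were the pairs among Lef1, Foxo1 and Satb1, in which Lef1 was highest on array 1 and Satb1 on array 2. A pair of a positive and a negative member keeps its order by the signs alone, so such pairs add nothing to the sign agreement above. Pairs share genes and so are not independent, and the share of all gene pairs that keep their order was not computed. The count of 18 is therefore no measure of how well the arrays matched. Over all genes the Pearson correlation between the arrays was 0.519. These 3 genes, with means from 0.45 to 0.59, thus had no settled order. The 4 members whose 95% interval lay on 1 side of 0 were Myb, Lef1, Foxo1 and Prdm1, the same that had an unadjusted limma p under 0.05. Of all genes, 5.86% passed that threshold on the positive side and 10.3% on the negative side, and none passed after adjustment.

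**Figure D2:**
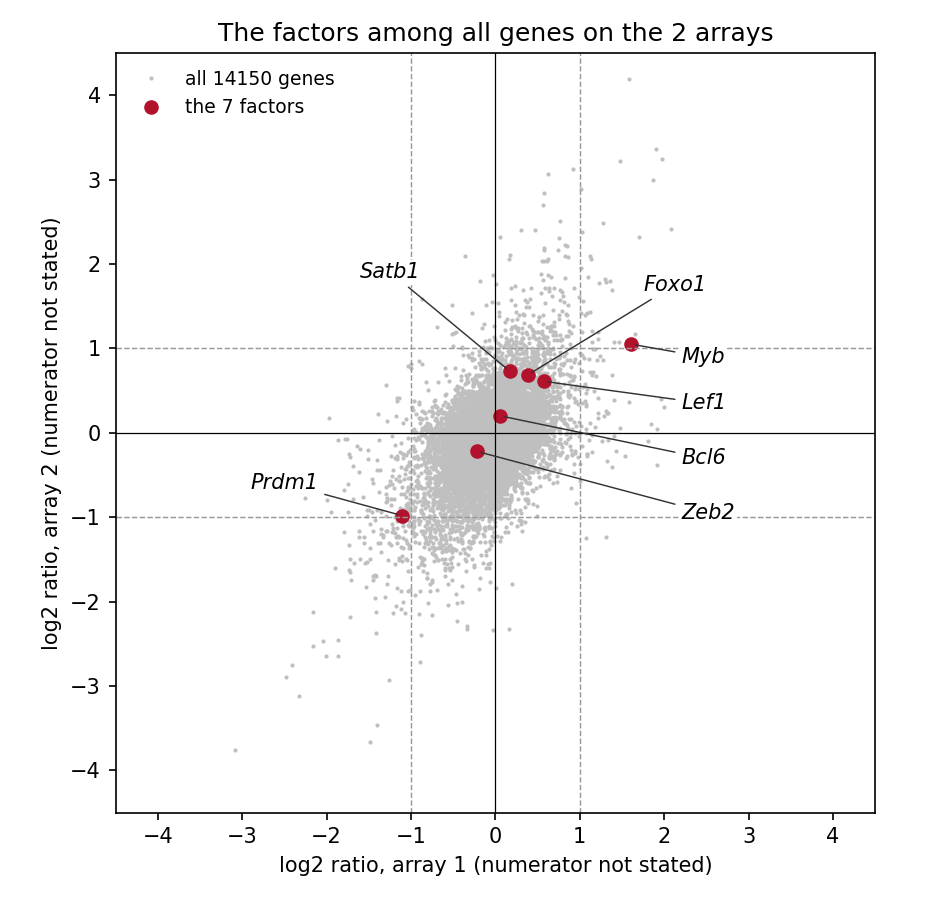
Log2 ratio on array 1 (horizontal) against array 2 (vertical) for all 14150 genes (grey) and the 7 factors (red, named), with dashed lines at a 2-fold ratio. Myb lies beyond 2-fold on both arrays as deposited, though not after quantile normalization, Prdm1 lies at the corner of the dashed lines with -1.11 and -0.98, and Bcl6 and Zeb2 lie inside the dense centre.

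The promoter windows of the members are shown because several of these factors are known to act on each other's genes. RefSeq promoter windows of the GRCm38.p6 build, 250 bases before to 50 after a transcript start, were found for all 7 measured members. The 8 listed genes had 19 windows, and all 27025 genes had 32851. Listed genes thus had on average more windows that could hold a match, and the shares per gene below do not allow for that. Letters known for the factors' own families were searched on both strands, and a match is a description and not a shown site. The FOXO letters TGTTTAC, or GTAAACA on the other strand, were in the windows of 4.05% of 27025 genes, and among the members in those of Myb and Prdm1, the 2 farthest out on opposite sides. The ZEB E-box letters CACCTG or CAGGTG were in those of 22.6% of genes, and here in those of Lef1, Satb1 and Prdm1. Capitals mark the matched letters, and each window runs 5′ to 3′ on the strand of its gene.
Myb, FOXO letters from base 34 after the start, chr10:21160935-21160961, minus strand: tgatggcatcTGTTTACagagttacac
Prdm1, FOXO letters on the opposite strand, 231 bases before the start, chr10:44458963-44458989, minus strand: cgtagtgtggGTAAACAtggagggcaa
Prdm1, ZEB E-box letters on the opposite strand, 87 bases before the start, chr10:44458820-44458845, minus strand: ctgggctggcCAGGTGcggccacgcc
Lef1, ZEB E-box letters from base 31 after the start, chr3:131110343-131110368, plus strand: cgcaaccgctCACCTGcggggcagcg
Satb1, ZEB E-box letters 172 bases before a start, chr17:51826745-51826770, minus strand: tgtctgactcCACCTGcttgtgactt

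Members on opposite sides thus held the same letters. The Bcl6 windows held the BCL6 letters TTCCNNGAA, or TTCNNGGAA on the other strand, present in 5.6% of genes and a special case of the letters STAT factors bind, at a pair of places before 1 start. The Zeb2 windows held the AP-1 and BACH letters TGAGTCA, or TGACTCA on the other strand, present in 5.95% of genes, also at a pair of places before 1 start. The TCF and LEF letters CTTTGA or TCAAAG, present in 18.2% of genes, were in windows of Lef1 itself and of Bcl6 among the measured members. The BLIMP-1 letters GTGAAAG or CTTTCAC, present in 4.89% of genes, were in no member's window. The MYB letters AACGG or CCGTT, in 19.6% of genes, were in windows of Foxo1, Satb1 and Zeb2.
Bcl6, BCL6 letters 168 bases before a start, chr16:23981433-23981461, minus strand: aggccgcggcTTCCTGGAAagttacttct
Bcl6, BCL6 letters 88 bases before that start, chr16:23981353-23981381, minus strand: atcgactacgTTCCGGGAAtgagagggct
Zeb2, AP-1 and BACH letters 189 bases before a start, chr2:45110450-45110476, minus strand: cgcctagcctTGAGTCAagcagtctta
Zeb2, AP-1 and BACH letters on the opposite strand, 132 bases before that start, chr2:45110393-45110419, minus strand: tcaggagttaTGACTCAttttgaagat
Lef1, TCF and LEF letters on the opposite strand, 180 bases before a start, chr3:131156104-131156129, plus strand: aaatacatggTCAAAGgaaaataggt

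Genes that work with the members were set beside them in lists of known relatives, partners, regulators and targets, and of other naive, memory and effector factors. These lists, like the members, were chosen with earlier results of these data known. Their shares beside those of all genes are therefore a description and no independent support. The median log2 ratio of the 7 members was 0.45, with 0.17 on array 1 and 0.61 on array 2, and over all genes it was -0.02. No listed gene passed limma's test adjusted over all genes, where the smallest adjusted p was 0.122. Each of these lists is therefore given with its counts at an unadjusted p under 0.05. Of all genes, 5.86% passed that threshold on the positive side and 10.3% on the negative side. Both arrays put 29.6% of all genes above 0 and 33.6% below it. At least 2-fold on both arrays were 0.233% of all genes on the positive side and 0.721% on the negative side.

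Other factors of naive or memory T cells lay mostly with the positive members. Both arrays put 10 of the 15 measured genes above 0, against 29.6% of all genes, and 1 below it, and the list median was 0.21. At the unadjusted threshold 5 were positive and 0 negative. Id3, an inhibitor of E-protein factors, was the 1 gene at least 2-fold on both arrays, with 2.08 and 2.41, farther out than Myb. Foxp1, a forkhead factor of T cell quiescence, read 0.61 and 0.82, close to Lef1 and Foxo1. Bcl11b, a factor of T cell identity, had 2 probes, with 0.78 and 1.48 for one and 0.46 and 2.25 for the other. Foxp1 and Bcl11b were picked after their values were seen. No probe was annotated to Tcf7, the gene of LEF1's closest partner TCF-1.

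Effector factors were found on both sides. Both arrays put 5 of the 10 measured genes below 0 with Prdm1 and Zeb2, against 33.6% of all genes, and 2 above it, and the list median was -0.33. The unadjusted threshold was passed by 5 negative genes, against 10.3% of all genes, and 1 positive gene. Eomes, a T-box factor, read -1.86 and -2.46, and Id2, another inhibitor of E-protein factors, read -1.49 on both arrays, so both were farther out than Prdm1. Tbx21, the gene of ZEB2's partner T-bet, read 0.04 and 0.72, on the opposite side from Zeb2.

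The close relatives of the members did not share a side: of 10, both arrays put 2 above 0 and 4 below it, around a median of 0.00. Below the unadjusted threshold were 2 negative relatives and 0 positive ones. The families of Myb and Bcl6 held genes on both sides. Beside 1.61 and 1.05 for Myb, Mybl2, the B-MYB gene of dividing cells, read -0.70 and -1.36 and Mybl1 read 0.19 and 0.11. Bcl6b, a BCL6 relative, read -0.80 and -0.72, farther out than Bcl6 and on the other side. Zeb1, the relative of Zeb2, read -0.01 and 0.08. The Foxo3 probes disagreed, with means of 0.23, 0.39 and -0.08, and Foxo4 read -0.07 and -0.35. These relatives were named after their values were seen.

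Partners and corepressors were spread around 0, and of 17 measured genes 4 stood above 0 and 5 below it on both arrays. Their median was -0.16, and at the unadjusted threshold 1 was positive and 3 were negative. Bcor, a corepressor that binds BCL6, read 0.99 and 0.83, on the same side as Bcl6 and farther out. Mafg, which encodes a small MAF protein that pairs with BACH factors, read -0.75 and -1.09. Both were chosen after their values were seen.

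Of the genes around FOXO1, known targets lay mostly above 0 and regulators of its protein mostly below it. Among 11 measured genes that FOXO1 is known to activate in T cells, 7 stood above 0 and 1 below it on both arrays. The shares over all genes were 29.6% and 33.6%. The median of these targets was 0.34, with 0.32 for array 1 and 0.82 for array 2. The unadjusted threshold was passed by 5 positive targets, against 5.86% of all genes, and 0 negative ones. At least 2-fold on both arrays were 4 of these targets, all positive, against 0.233% of all genes. Pik3ip1, which encodes an inhibitor of PI3-kinase, read 1.38 and 1.69, and Ctla4, an inhibitory receptor gene, read 1.12 and 2.10. The lymph node homing receptor gene Ccr7 read 1.28 and 2.48 and the IL-7 receptor gene Il7r 1.58 and 4.19. The mean of each of these 4 genes was farther from 0 than that of Foxo1. Of 12 measured genes for kinases, 14-3-3 proteins and other regulators of FOXO1 protein, 8 stood below 0 and 1 above it on both arrays. Their median was -0.27, and 4 negative genes, against 10.3% of all genes, and 0 positive ones passed the unadjusted threshold. None of the 12 was at least 2-fold on both arrays. Akt1 read -0.57 and -0.55, and Ywhab, a 14-3-3 gene, read -1.04 and -0.64. Pdpk1, the 1 gene above 0 on both arrays, read 0.11 and 0.72, and Ywhaz, another 14-3-3 gene, read -0.02 and 0.18. All of these were picked after their values were seen.

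Genes that BCL6 or BLIMP-1 is known to repress did not share a side. Both arrays put 3 of the 12 measured genes above 0 and 5 below it, and the list median was -0.07. Past the unadjusted threshold were 1 positive gene and 4 negative ones. Those at least 2-fold on both arrays were Id3, repressed by BLIMP-1, on the positive side and 4 genes repressed by BCL6 on the negative side. The feedback inhibitor genes Socs2 and Cish read -2.33 and -3.12 for Socs2 and -1.16 and -1.84 for Cish. The cell cycle inhibitor gene Cdkn1a read -1.72 and -1.65, and Id2 is given above. Il2, which BLIMP-1 represses, changed sign between arrays, with 0.18 and -0.27, as did Myc, with 0.30 and -1.05. Il2 and Myc were picked after their values were seen.

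**Figure D3:**
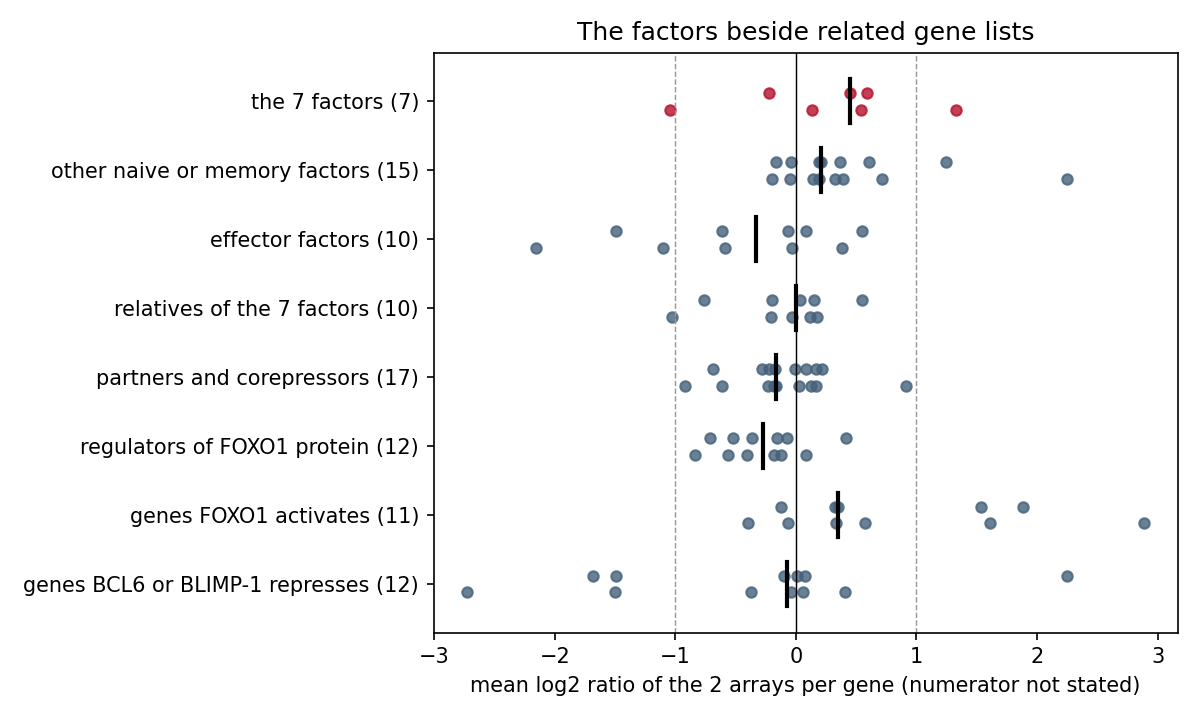
Mean log2 ratio of the 2 arrays (horizontal axis) for each gene of the 7 factors (red) and of the related lists (blue), with the number of measured genes in brackets, a black bar at each median and dashed lines at a 2-fold ratio. The 7 factors run from -1.04 for Prdm1 to 1.33 for Myb, the other naive or memory factors have their median at 0.21 and the effector factors theirs at -0.33.

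In bulk RNA of a culture, fewer cells of a type and less RNA per cell cannot be told apart. Bcl6, Foxo1, Lef1, Myb and Prdm1 are also used by B lineage cells, so markers of other cells were read beside them. Both arrays put 8 of 11 measured B cell markers above 0 and 1 below it. Their median was 0.33, with 0.11 for array 1 and 0.65 for array 2. At the unadjusted threshold 4 of the 11 were positive and 0 negative, against 5.86% of all genes on the positive side. Ighm, the immunoglobulin heavy chain gene, had 4 probes with means of 2.15, 1.02, 0.30 and 0.42. Cd74, the class II invariant chain gene, read 0.06 and 2.32, Cd79b read 0.67 and 1.62 and Cd79a 0.31 and 1.06. Ms4a1 read 0.11 and 0.08 and Pax5 0.21 and -0.06. The T cell markers did likewise, with 6 of 8 above 0 and 0 below it, and their median was 0.37, with 0.16 for array 1 and 0.63 for array 2. The unadjusted threshold was passed by 2 of the 8, both positive. Of 10 myeloid and dendritic cell markers, 1 stood above 0 and 4 below it, around a median of -0.11, and 0 passed that threshold. Of 6 markers of CD4 T cells, regulatory T cells and NK cells, 2 stood above 0 and 2 below it, around a median of 0.01, and 1 negative gene passed it. Whether such cells had a part in the values of the 7 factors was not tested.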

How the data were processed

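The deposited table holds 1 signed value per probe and array for 2 two-colour microarrays. The authors' values were taken as log2 ratios from their range and their medians of 0.01 and 0.02. Log base, numerator, dyes, background correction and normalization are not given in the sources used here. Probes were named from the platform annotation, in which 15998 of 21919 probes had 1 gene symbol. The Entrez IDs of all 7 member probes had the same symbol in RefSeq.

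limma 3.58.1 (R 4.3.3) was used to test the mean log2 ratio of the 2 arrays against 0, two-sided, adjusting by Benjamini-Hochberg over 21427 probes. The same was done over 14150 genes, each the mean of its probes. Printed adjusted p-values and intervals of members are those over probes. A probe's own spread rests on 1 degree of freedom, to which limma's prior added 3.43. Arrays limit the precision by their number, and the median half-width of a 95% interval was 0.396. The fit was tested on simulated data.

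Members and gene lists were chosen with earlier results of these data known. Named genes were all members, each listed gene at least 2-fold on both arrays, and Tcf7, Tbx21, Eomes, Id2 and Id3. Others are marked in the text, apart from markers and the genes set beside them as examples. Older symbols were matched through Entrez ID. Alternatives were centring, quantile normalization, other spread models, probe filters and summaries, other sizes, natural logs and leaving out each array.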

Additional observations from a re-analysis of the deposited data

How the results depend on the processing

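All 7 members kept their sign after median centring and after quantile normalization. With 1 probe per member, the other spread models, probe filters and summaries could not change a member's value, and natural logs could not change a sign. The signs on each array alone repeat the agreement between arrays given above. The count of members past an adjusted p of 0.05 was 0 under each moderated fit and 1 with each probe's or gene's own spread, where the 1 was Zeb2, whose identical values leave no spread (adjusted p of 6.24e-15 over probes). With moderation, the adjusted p of Prdm1 ran from 0.0979 to 0.164 over probes, and that of Myb from 0.0979 to 0.167. The 2-fold rule depended on the scaling. Quantile normalization left 0 positive members in place of Myb. On the negative side, Prdm1 made the count 1 after median centring, as natural logs, at 1.5-fold and on array 1 alone, and on single arrays the count was 0 to 1 there. Related genes at least 2-fold numbered 5 on each side over both arrays, and on single arrays 5 to 11 positive and 6 to 10 negative, the higher counts on array 2. Each array holds both stages, so the test of its log ratio against 0 already compares them as a pair. No further pairing was possible because the series has 1 group.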
